A study of Mus musculus with 6 samples.

Results

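Fibroblasts turned into Leydig-like cells by small molecules were compared across all genes with Leydig cells cultured from testis. The comparison rests on 4 of the 6 libraries of the series: the 2 of the induced cells (labelled CiLCs, here CiLC) and the 2 of the testis cultures (LCs, here LC), chosen by their labelled cell type. The 2 libraries of untreated fibroblasts (MEFs, here MEF) entered the same fit and are shown beside them. All cells came from KM mice, and no genotype is labelled. MEF were embryonic fibroblasts taken at 12.5 or 13.5 days post coitum and carried for 3 to 5 passages. CiLC were such passaged fibroblasts, also at passage 3 to 5, to which small molecules were added 24 hours after seeding. LC were prepared from testis and carried for 0 to 1 passages. The compounds, the length of the treatment, the age of the testis donors and any purification step were not stated in the labels. Passage and tissue of origin differ between CiLC and LC together with the cell type, and their parts cannot be told apart.

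Leydig cells lie between the seminiferous tubules and make testosterone in response to luteinizing hormone. Cholesterol, imported or made in the cell, is carried into mitochondria with the help of STAR, where the enzyme encoded by Cyp11a1 cleaves its side chain. Ferredoxin reductase (Fdxr) and ferredoxin (Fdx1) pass electrons to that enzyme, and dehydrogenases and further cytochromes P450 in the endoplasmic reticulum turn pregnenolone into androgen. NR5A1 (steroidogenic factor 1) and GATA4 are transcription factors of this programme. The comparison of CiLC with LC addresses how far the induced cells had come towards Leydig cells over the whole transcriptome.

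Each library held 18.4 to 18.9 M estimated reads, with 16441 to 16631 genes above 0. No label ties the replicates to different cultures or animals. The p-values therefore reflect the spread between the sequenced libraries alone, and this spread may be technical. That spread was small, with a common biological coefficient of variation of 3.16%, and a comparison with this little spread calls small differences. Levels are CPM, counts scaled to a common library size, given for replicate 1 and then replicate 2. They are not divided by gene length, so they are compared between groups and not between genes. Unless another setting or method is named, fitted folds and adjusted p-values are those of the quasi-likelihood test of edgeR. Adjustment was by Benjamini-Hochberg over 14581 genes, and "called" means an adjusted p under 0.05. Ratios with counting intervals and folds by a floor of reads come from the read counts themselves. These are bulk RNA measurements, in which fewer cells of a type and less RNA per cell cannot be told apart.

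The promoters of genes from the first step of steroid synthesis and from cholesterol synthesis are shown first, because both groups of genes were mostly lower in CiLC (values below). Windows run from 250 bases before to 50 after a transcript start, taken from RefSeq on GRCm38.p6. Fdx1 was shown as a marker gene of the comparison, and Hmgcs1, which makes the precursor of mevalonate, and the thiolase gene Acat2 as cholesterol synthesis genes with a match. The Fdx1 window is at chr9:51963553-51963852 on the minus strand, the Hmgcs1 window at chr13:119690101-119690400 on the plus strand and the Acat2 window at chr17:12960676-12960975 on the minus strand. Capitals mark the letters CACCCCA, the core of a sterol regulatory element bound by SREBP factors.
Fdx1: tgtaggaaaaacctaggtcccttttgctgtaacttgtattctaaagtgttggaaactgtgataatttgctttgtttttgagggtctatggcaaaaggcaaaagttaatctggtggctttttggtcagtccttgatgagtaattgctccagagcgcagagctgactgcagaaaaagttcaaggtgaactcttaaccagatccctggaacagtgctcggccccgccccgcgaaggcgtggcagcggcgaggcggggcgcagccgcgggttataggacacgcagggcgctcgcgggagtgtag
Hmgcs1: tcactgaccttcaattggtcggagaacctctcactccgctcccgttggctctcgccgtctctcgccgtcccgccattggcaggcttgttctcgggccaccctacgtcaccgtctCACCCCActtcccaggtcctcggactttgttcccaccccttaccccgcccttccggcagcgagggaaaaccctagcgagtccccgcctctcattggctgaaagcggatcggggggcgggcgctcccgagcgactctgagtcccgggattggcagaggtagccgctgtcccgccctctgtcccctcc
Acat2: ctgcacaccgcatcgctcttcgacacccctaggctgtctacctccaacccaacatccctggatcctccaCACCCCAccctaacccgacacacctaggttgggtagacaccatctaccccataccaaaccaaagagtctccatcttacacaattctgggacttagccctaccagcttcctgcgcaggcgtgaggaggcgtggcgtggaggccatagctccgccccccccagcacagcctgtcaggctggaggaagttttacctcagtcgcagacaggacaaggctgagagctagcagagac

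A pair of motifs was searched on both strands, and matches of the 2 could overlap at their end letters only. AAGGTCA, the core bound by NR5A1, was in 1550 of 32851 promoter windows of the table (4.72%). It was in 2 of 27 windows of the cholesterol synthesis list (Dhcr7 and Hmgcs1) and in 1 of 9 windows of the cholesterol import and side-chain cleavage list, that of Vdac1, with 7 of the 12 genes matched. It was not in the window of Fdx1 or in the 2 windows listed for Cyp11a1, and whether those hold the start used in these cells was not tested. Star had no promoter window and could not be searched. CACCCCA was in 2504 windows (7.62%), in none of the 9 windows of the import list and in 4 of 27 windows (14.8%) of the cholesterol synthesis list, with 22 of 32 genes matched: Acat2, Hmgcs1, Soat1 and Srebf2. In Hmgcs1 it begins at position -136 and in Acat2 at position -181 from the start, on the gene's strand. This second motif and its genes were chosen after the expression results and the first search had been seen. A match is a string of letters and not a measured site, and a missing match says only that the letters are not in that window.

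The CiLC and LC transcriptomes differed at most genes. Of 14581 genes tested, 10295 (70.6%) were called, 5108 (35.0%) as higher and 5187 (35.6%) as lower in CiLC. All counts of list members called are to be read beside these shares. At least 2-fold differences were called for 1666 genes higher (11.4%) and 2043 genes lower (14.0%) in CiLC. The median log2 fold change over all genes was 0.00463, and the median of its size was 0.44. The root mean square difference in log2 CPM was 1.48 to 1.49 between CiLC and LC libraries, 0.868 to 0.88 between CiLC and MEF, 1.58 to 1.59 between MEF and LC and 0.307 to 0.312 within a group. The gene with most reads was the collagen gene Col3a1 in CiLC and the complement gene C3 in LC. When each gene was given a coefficient of variation of 0.4 in place of its estimate (below, the wide-spread setting), 937 genes were called higher and 1314 lower.

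**Figure D1:**
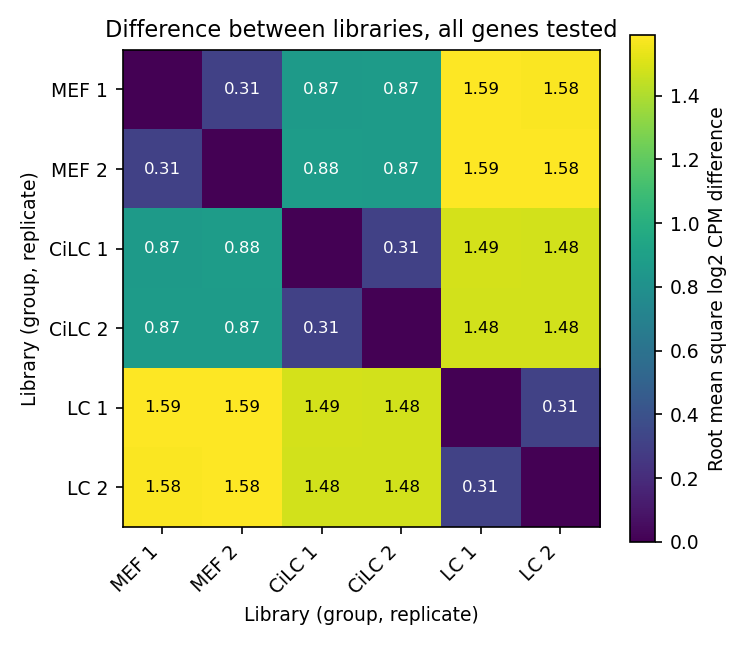
Root mean square difference in log2 CPM over all genes tested, for every pair of the 6 libraries. CiLC libraries lie 1.48 to 1.49 from LC libraries and 0.868 to 0.88 from MEF libraries.

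The label of the LC libraries was set beside genes that Leydig cells express, not all of them particular to these cells. Cyp11a1, Star, Nr5a1, Gata4, Inha and Insl3 were present (values below), but the later androgen genes were near 0. Presence in bulk RNA does not show which testis cells carried them. Cyp17a1, which makes androgen precursors, had 0 and 1 reads in LC and 1 and 1 in CiLC. Lhcgr, the luteinizing hormone receptor, had 3 and 2 reads in LC and 0 and 0 in CiLC, too few to be tested. With CiLC set to a floor of 3 reads over the 2 libraries of a group, the ratio was 1.92. That ratio leaves out the counting error of the LC reads. Hsd3b6, the 3-beta-hydroxysteroid dehydrogenase of adult Leydig cells, had 7.72 and 3.56 estimated reads in LC and 0.36 and 1 in CiLC, a ratio of 13.8 (95% counting interval 2.04 to 590). Reads of the Hsd3b genes, which are near copies of each other, could be split between them. The LC libraries therefore carried the early steps of steroid synthesis, while defining genes of the later, androgen-making steps were at or near 0 in both groups.

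Genes of Sertoli cells, the supporting cells of the tubules, were higher in LC. Of 21 Sertoli cell genes tested, 18 were lower in CiLC and 2 higher, and the median log2 fold change was -2.70. The summed CPM of that list was 3020 to 3050 in LC, 566 to 575 in CiLC and 304 to 306 in MEF. Clusterin (Clu), a secreted chaperone, stood at 1940 and 1940 CPM in LC against 78.9 and 80.5 in CiLC. The tight junction gene Cldn11 stood at 119 and 116 against 7.07 and 8.37, and Sox9 at 45.1 and 47.5 against 10.2 and 9.28. These 3 genes were chosen after their values were seen. Dhh, the hedgehog ligand of Sertoli cells, stood at 14.2 and 11.9 CPM in LC and at 0.254 and 0.355 in CiLC (42.0-fold lower). Endothelial genes were lower in CiLC for 10 of 16 tested and higher for 5, with a summed 298 to 314 CPM in LC, 125 to 126 in CiLC and 239 to 241 in MEF. Of 7 germ cell genes tested, 4 were higher and 2 lower in CiLC, with a summed level of 99.2 to 106 CPM in CiLC, 43.2 to 44.3 in LC and at most 113 in MEF. The count of lower germ cell genes was 4 without MEF replicate 1, without MEF replicate 2 or without LC replicate 1. The part of other testis cells in the genes higher in LC was not tested.

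Genes of side-chain cleavage were far lower in CiLC than in LC. Cyp11a1 (NCBI gene 13070) stood at 12.8 and 11.8 CPM in CiLC, 718 and 693 in LC and 1.42 and 1.25 in MEF. The CiLC libraries lay between the other groups and overlapped neither. The difference from LC was 57.3-fold (log2 fold change -5.84 ± 0.0749 SE, edgeR adjusted p = 1.71e-26). Fdx1 (14148) stood at 8.4 and 7.96 CPM in CiLC, 95.3 and 89.5 in LC and 6.97 and 8.54 in MEF, so that CiLC lay within the range of the MEF libraries. It was 11.3-fold lower than in LC (log2 fold change -3.50 ± 0.0931 SE, edgeR adjusted p = 4.81e-21). Fdxr (14149) stood at 6.16 and 6.19 CPM in CiLC, 69.4 and 63.2 in LC and 7.29 and 7.44 in MEF (10.7-fold lower than in LC), and both CiLC libraries lay under both MEF libraries. Neither gene of the electron supply stood above the MEF range in CiLC.

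Other genes of the first steps were nearer to the LC level. Star (20845), which admits cholesterol to mitochondria, stood at 58.4 and 57.6 CPM in CiLC, 184 and 180 in LC and 5.08 and 5.47 in MEF. CiLC thus lay 3.14-fold under LC, with a log2 fold change of -1.65 ± 0.0498 (SE) and an edgeR adjusted p of 1.02e-18. Further along the pathway, Hsd3b1 (15492), which makes progesterone from pregnenolone, stood at 6.36 and 5.88 CPM against 36.5 and 34.1 in LC and 0.891 and 0.521 in MEF (5.76-fold lower than in LC). The outer-membrane protein gene Tspo, chosen after its values were seen, stood at 28.6 ± 0.684 CPM (SD, n = 2) in CiLC, 98.3 ± 2.42 in LC and 30.4 ± 3.98 in MEF. Of the 12 members of the import and side-chain cleavage list, 9 were lower, 1 (Opa1, a mitochondrial fusion gene, 1.13-fold) was higher and 2 were not called, and the median log2 fold change was -0.88 against 0.00463 for all genes. The Opa1 call ended without CiLC replicate 1 (adjusted p = 0.0724), and under the wide-spread setting, 5 members stayed lower.

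The later steroid genes split. Of 21 members tested, 14 were lower and 5 higher in CiLC (median log2 fold change -0.46), while 9 more, Cyp17a1, Hsd3b6 and Sult1e1 among them, had too few reads to be tested. Cyp11b1, an adrenal hydroxylase, stood at 0.458 and 0.355 CPM in CiLC and 8.18 and 8.83 in LC (20.6-fold lower). The aldose reductase gene Akr1b3 stood at 81.7 and 76.6 against 585 and 572 CPM (7.31-fold lower), and the 5-alpha-reductase Srd5a1 at 2.19 and 2.54 against 4.7 and 5.53. Akr1c14, a hydroxysteroid dehydrogenase, ran the other way, with 34.2 and 36.5 CPM in CiLC, 10.6 and 9.3 in LC and 0.944 and 0.625 in MEF (3.56-fold higher than in LC). Srd5a1 lost its call under the wide-spread setting (adjusted p = 0.293).

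**Figure D2:**
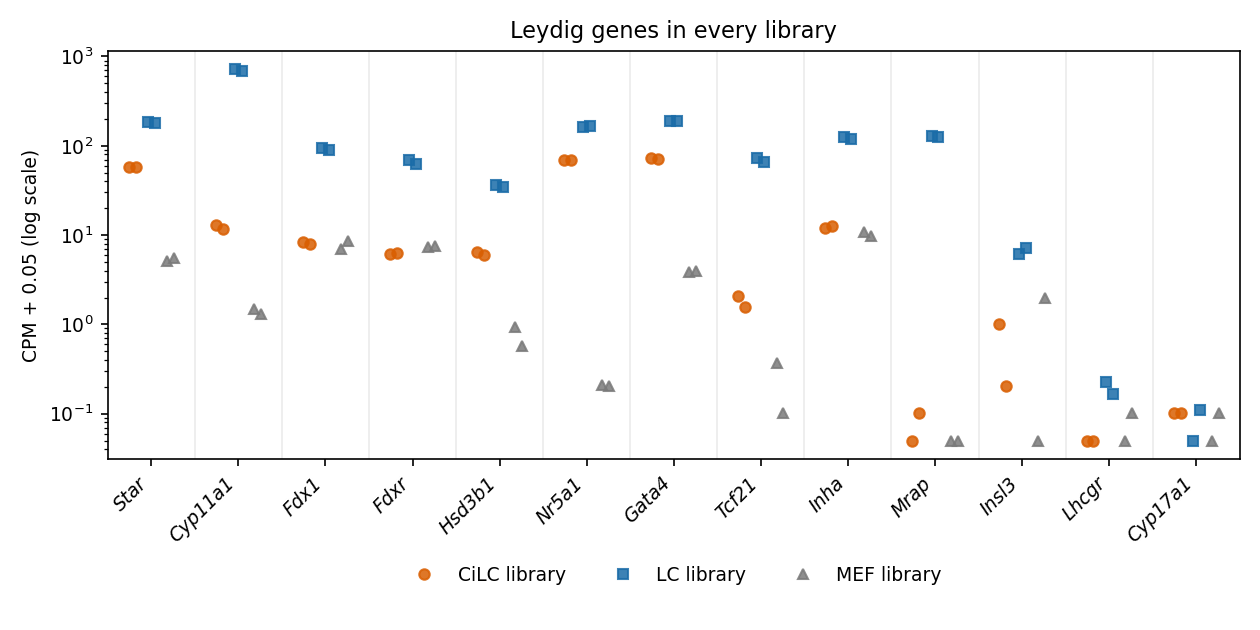
CPM of 13 Leydig genes in each library, on a log axis after adding 0.05, with circles for CiLC, squares for LC and triangles for MEF. Star, Cyp11a1, Hsd3b1, Nr5a1 and Gata4 lie between MEF and LC in CiLC, Fdx1, Fdxr and Inha lie near MEF, and Lhcgr and Cyp17a1 lie near 0 in every library.

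The transcription factors of the programme were present in CiLC at lower levels. Nr5a1 (26423) stood at 69.3 and 68.7 CPM in CiLC, 164 and 167 in LC and 0.157 and 0.156 in MEF, 2.40-fold lower than in LC (log2 fold change -1.26 ± 0.0483 SE, edgeR adjusted p = 1.04e-16). Gata4 (14463) stood at 72.2 and 71.9 CPM against 189 and 191 in LC and 3.83 and 3.96 in MEF (2.64-fold lower than in LC). These 2 calls ended under the wide-spread setting (adjusted p = 0.158 and 0.0983). Other factors went further down or up. Tcf21, a basic helix-loop-helix factor of gonadal stroma, stood at 2.04 and 1.52 CPM in CiLC, 72.7 and 66.2 in LC and 0.315 and 0.052 in MEF (38.9-fold lower). Lhx9, a homeobox gene of the gonadal ridge, stood at 1.22 and 0.862 CPM against 29.2 and 26.1 (26.4-fold lower). Wt1, a factor of gonadal somatic cells, stood at 20 and 16.9 CPM against 122 and 124 (6.66-fold lower). Of 34 gonadal transcription factors tested, 18 were lower and 10 higher in CiLC (median log2 fold change -0.62). Over all genes, 35.6% were lower and 35.0% higher, so the higher factors were no larger a share than among all genes. Emx2, another gonadal ridge factor, was the most raised named member, with 25.7 and 26.1 CPM in CiLC and 5.04 and 5.18 in LC (5.06-fold).

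Peptide hormone, receptor and accessory protein genes did not move as a block, and which testis cells carried them in LC was not tested. Mrap (77037), the accessory protein that carries melanocortin receptors to the cell surface, had 0 and 1 reads in CiLC, 0 and 0 CPM in MEF and 127 and 124 CPM in LC. The ratio of LC to CiLC was 4940 (95% counting interval 887 to 195000). Mc2r, the corticotropin receptor that MRAP serves, was low in all groups but higher in CiLC, with 3.26 and 3.75 CPM against 0.406 and 0.118 in LC (13.0-fold, edgeR adjusted p = 1.74e-08). Its log2 fold change of 3.70 was 4.82 without LC replicate 1 and 3.09 without LC replicate 2. Inha, the inhibin alpha subunit, stood at 12.1 and 12.6 CPM in CiLC, 126 and 118 in LC and 10.9 and 9.68 in MEF (9.91-fold lower than in LC). Amhr2, the receptor for anti-Müllerian hormone, stood at 0.153 and 0.203 CPM against 21.7 and 20.5 (115-fold lower). Insl3, a peptide hormone of Leydig cells, stood at 0.967 and 0.152 CPM in CiLC and 6.03 and 7.06 in LC, with fractional reads in 4 libraries. Its log2 fold change of -3.53 was -5.36 without CiLC replicate 1 and -2.74 without CiLC replicate 2, and DESeq2 did not call it (adjusted p = 0.15).

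Some Leydig genes were above the LC level in CiLC. The prolactin receptor Prlr stood at 91.8 and 88.6 CPM in CiLC, 55.0 and 54.6 in LC and 3.51 and 4.42 in MEF (1.65-fold higher than in LC), a call lost under the wide-spread setting (adjusted p = 0.637). Ptgds, a prostaglandin D synthase, stood at 30.4 and 24.3 CPM in CiLC, 6.44 and 5.71 in LC and 0.157 and 0.104 in MEF (4.50-fold higher than in LC). Ptgds also counts among the higher Sertoli cell genes above. Of 22 adult Leydig markers tested, 16 were lower and 6 higher in CiLC, and the median log2 fold change was -1.66. Gsta3, a glutathione transferase with ketosteroid isomerase activity, had the widest fitted gap among them, at 1.48 and 1.17 CPM against 110 and 106 (81.2-fold lower). Fetal Leydig markers split 7 higher to 6 lower of 13, with a median of 2.70. Dlk1 and Hhip (below) and Mc2r were among the higher, and Mrap, Hsd3b1 and the secretase gene Bace2 (3.15 and 3.09 against 32.8 and 32.9 CPM) among the lower. Dlk1 marks embryonic mesenchyme as well, and Mrap and Mc2r also belong to the adrenal cortex.

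Cholesterol synthesis genes were lower in CiLC almost throughout. Of 32 members of the synthesis and uptake list, 28 were lower, 2 higher and 2 not called, and the median log2 fold change was -1.49. The median fitted fold of the lower members was 3.42. Fdps, which makes farnesyl diphosphate, stood at 17 and 17.7 CPM in CiLC, 143 and 136 in LC and 20.1 and 17.7 in MEF (8.02-fold lower than in LC, edgeR adjusted p = 2.17e-21). In the genes whose promoters are printed above, the levels were 54.5 and 49.2 against 241 and 233 CPM for Hmgcs1, with 49.3 and 46.2 in MEF, and 17.7 and 17.7 against 91.7 and 84.4 for Acat2, with 11.9 and 10.5 in MEF. In each of these 3 genes CiLC lay nearer to MEF than to LC. The 2 higher members act on cholesterol from lysosomes: the acid lipase Lipa, with 390 and 385 CPM against 165 and 173 in LC, and the transporter Npc1, with 205 and 206 against 143 and 155. Under the wide-spread setting, 15 members were lower.

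Fatty acid genes divided. Lipoprotein lipase (Lpl) stood at 1780 and 1770 CPM in CiLC, 438 and 447 in LC and 199 and 180 in MEF (4.0-fold higher than in LC). The desaturase Scd1, a liver X receptor target, stood at 165 and 165 CPM against 1260 and 1330 (7.83-fold lower), and the triglyceride synthase Dgat2 at 3.26 and 2.84 against 21.4 and 20.8 (6.92-fold lower). Of 16 genes of cholesterol export and liver X receptor targets, 11 were lower and 3 higher (median log2 fold change -0.73). The 23 lipid droplet and fatty acid uptake genes tested split 12 lower to 6 higher, with a median of -0.24. The summed level of that list, which includes Lpl, ran the other way. It was 2620 to 2640 CPM in CiLC, 1390 in both LC libraries and 883 to 893 in MEF.

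Glycolysis and hypoxia genes were lower in CiLC for 27 of 28 tested, the other was not called, and the median log2 fold change was -2.14. Slc2a3, a glucose transporter, stood at 8.55 and 7.66 CPM in CiLC, 133 and 141 in LC and 10.4 and 11.8 in MEF (16.9-fold lower than in LC). Egln3, an oxygen sensor that hypoxia itself induces, stood at 4.12 and 4.82 CPM against 58.3 and 60.3 (13.2-fold lower). Lactate dehydrogenase A (Ldha) stood at 441 and 442 CPM against 2270 and 2260, and the angiogenic factor Vegfa at 137 and 138 against 569 and 574. Ldha and Vegfa were chosen after their values were seen. Under the wide-spread setting, 21 members were still lower. Respiratory chain genes differed by less: 20 of 35 were lower and 3 higher, with a median of -0.25, and the 3 higher calls ended without CiLC replicate 1 or without LC replicate 2.

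Most retinoid and detoxifying enzyme genes were lower in CiLC. Aldh1a2, which makes retinoic acid, stood at 9.26 and 10.4 CPM in CiLC, 379 and 385 in LC and 3.41 and 3.9 in MEF (38.8-fold lower than in LC). The retinoid binding protein Crabp1 ran the other way, with 460 and 562 reads in CiLC and 2 and 0 in LC, a ratio of 444 (95% counting interval 123 to 3670). In all, 14 of 22 retinoid and aldehyde genes were lower and 5 higher (median log2 fold change -1.41). Of 26 glutathione and NRF2 genes, 22 were lower and 2 higher (median -0.89), and all 7 glutathione S-transferase genes tested among them were lower. Gstm1 stood at 89.3 and 102.0 CPM against 1360 and 1390 (14.4-fold lower), with reads that its close paralogs could share. The 2 higher members were the epoxide hydrolase Ephx1 (1.31-fold) and the cystine transporter Slc7a11 (1.22-fold). Slc7a11 lost its call without CiLC replicate 1 (adjusted p = 0.0509).

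**Figure D3:**
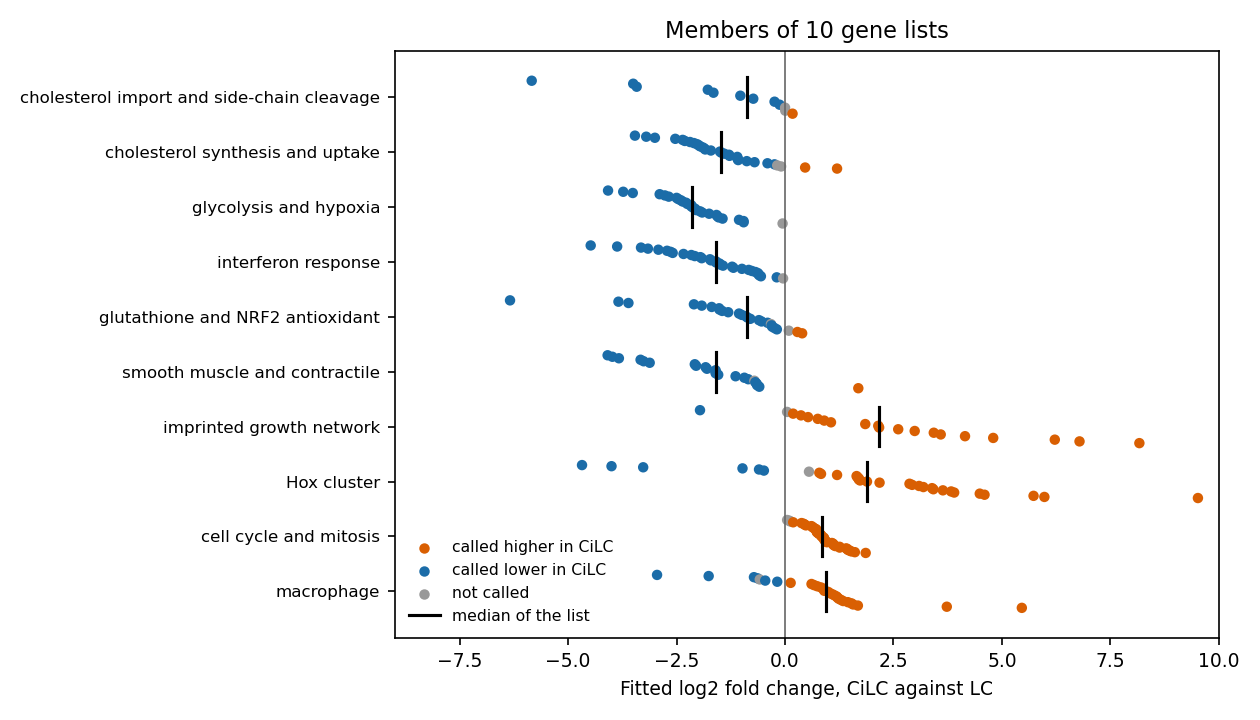
Fitted log2 fold change of CiLC against LC for each tested member of 10 gene lists, coloured by call, with the median of each list as a black bar. Glycolysis and hypoxia genes centre on -2.14 and cholesterol synthesis genes on -1.49, and imprinted genes on 2.16 and Hox genes on 1.89.

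Interferon response genes and most cytokine genes were higher in LC. Of 32 interferon response genes, 31 were lower in CiLC and 1 was not called (median log2 fold change -1.59). Irf7, a regulator of interferon genes, stood at 12.3 and 12.9 CPM in CiLC, 282 and 280 in LC and 8.75 and 9.63 in MEF (22.3-fold lower than in LC). Of 42 cytokine and chemokine genes, 30 were lower and 9 higher (median -1.36). The chemokine Ccl5 stood at 0.356 and 0.659 CPM in CiLC and 202 and 191 in LC (382-fold lower), and the acute phase gene Saa3, chosen after its values were seen, at 193 and 201 against 6050 and 5360. Complement genes went both ways, with 13 of 24 lower and 9 higher (median -0.29), the higher ones near the 35.0% of all genes. Complement factor B (Cfb) stood at 15.4 and 13.3 CPM against 1210 and 1160 (82.7-fold lower). Antigen presentation genes were lower for 15 of 18 tested and higher for 1 (median -1.21). Members higher in CiLC included the chemokines Ccl8, at 31.9 and 32.0 against 2.32 and 2.3 CPM, and Cxcl13, at 4.99 and 5.53 against 0.29 and 0.177. Under the wide-spread setting, 16 interferon genes, 19 cytokine genes and 5 antigen presentation genes were lower.

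Macrophage genes did not follow this direction. Of 30 tested, 23 were higher in CiLC and 6 lower, and the median log2 fold change was 0.95. Their summed level was 15100 to 15200 CPM in CiLC, 6400 to 6790 in LC and 11600 to 11800 in MEF. Mrc1, the mannose receptor, stood at 633 and 610 CPM in CiLC, 47.3 and 46.3 in LC and 528 and 515 in MEF (13.3-fold higher than in LC). Csf1r, the receptor that macrophages need to survive, stood at 936 and 919 CPM against 335 and 345 in LC and 1270 and 1310 in MEF (2.73-fold higher than in LC). Marco, a scavenger receptor, was higher in LC, with 126 and 130 CPM against 16.9 and 16.1 in CiLC. Under the wide-spread setting, 3 members were higher and 1 lower. The part of macrophages in the immune genes above was not tested.

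Some genes that were far higher in CiLC than in LC were also high in MEF. Dlk1 (13386), an imprinted inhibitor of differentiation, stood at 347 and 364 CPM in CiLC, 1.1 and 1.35 in LC and 107 and 113 in MEF (288-fold higher than in LC, edgeR adjusted p = 7.46e-26). Fbn2 (14119), a fibrillin of embryonic microfibrils, stood at 578 and 545 CPM in CiLC, 2.96 and 3.0 in LC and 687 and 679 in MEF (188-fold higher). Thy1, a fibroblast surface protein, stood at 795 and 838 CPM against 5.57 and 5.89 in LC and 395 and 396 in MEF (142-fold higher). Igf2, the fetal growth factor, stood at 2380 and 2410 CPM against 31.8 and 32.4 in LC and 1630 and 1720 in MEF (74.6-fold higher). No CiLC library overlapped an LC library in these 4 genes, and 70.5% of all genes tested were called with libraries that did not overlap. The 3 groups share their libraries across these comparisons, so the MEF levels are given for description only.

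Further genes had high levels in MEF and large differences from LC. Lgr5, Grem1, Tbx15 and Irx1 met a naming rule that asks for a MEF level not far under that of CiLC. Their high MEF level was therefore fixed by that choice. Aspn, a small proteoglycan, stood at 292 and 274 CPM in CiLC, 0.638 and 1.12 in LC and 523 and 437 in MEF (320-fold higher than in LC). Lgr5, a receptor for R-spondins, stood at 280 and 269 CPM against 0.638 and 0.589 in LC and 588 and 557 in MEF (443-fold higher). The BMP antagonist Grem1 had 441 and 447 reads in CiLC and 0 in both LC libraries, at least 257-fold higher by the floor of 3 reads over the group. It stood at 22.4 and 22.7 CPM in CiLC and 15.8 and 18.7 in MEF. The patterning factor Tbx15 stood at 120 and 120 CPM against 0.232 and 0.118 in LC and 74.9 and 74.7 in MEF. The Iroquois gene Irx1 had 1010 and 999 reads in CiLC and 1 and 1 in LC, a ratio of 872 (95% counting interval 241 to 7210). Of 44 fibroblast surface and mesenchyme genes tested, 29 were higher and 12 lower in CiLC, and the median log2 fold change was 1.38. Their summed level was 6150 to 6160 CPM in CiLC, 6150 to 6240 in LC and 4910 to 4960 in MEF. In total, this list was thus not higher in CiLC than in LC. Pdgfra, which Leydig progenitors also carry, was among the lower, with 963 and 924 CPM against 1760 and 1810, a call lost under the wide-spread setting (adjusted p = 0.422).

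Positional and imprinted genes set the groups apart. Of 31 Hox genes tested, 24 were higher in CiLC, 6 lower and 1 not called, and the median log2 fold change was 1.89. The split followed the clusters: all 10 Hoxa genes, all 8 Hoxb genes and 6 of 7 Hoxc genes were higher, and all 6 Hoxd genes were lower. Hoxa10 stood at 12.9 and 13.7 CPM in CiLC, 0.232 and 0.177 in LC and 11.1 and 12.5 in MEF (63.2-fold higher than in LC). Hoxd10 stood at 1.83 and 1.57 CPM in CiLC, 43.1 and 44.7 in LC and 1.36 and 1.09 in MEF (25.7-fold lower than in LC). Reading the list by cluster was a choice made after the values were seen, and under the wide-spread setting, 21 members were higher and 3 lower. Of 20 genes of the imprinted growth network, 18 were higher and 1 lower (median 2.16). Mest, a paternally expressed hydrolase, stood at 148 and 143 CPM against 1.39 and 1.24 in LC and 47.7 and 47.2 in MEF (110-fold higher). The member that was lower was Peg10, with 22.7 and 25.2 CPM against 92.5 and 93.6.

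**Figure D4:**
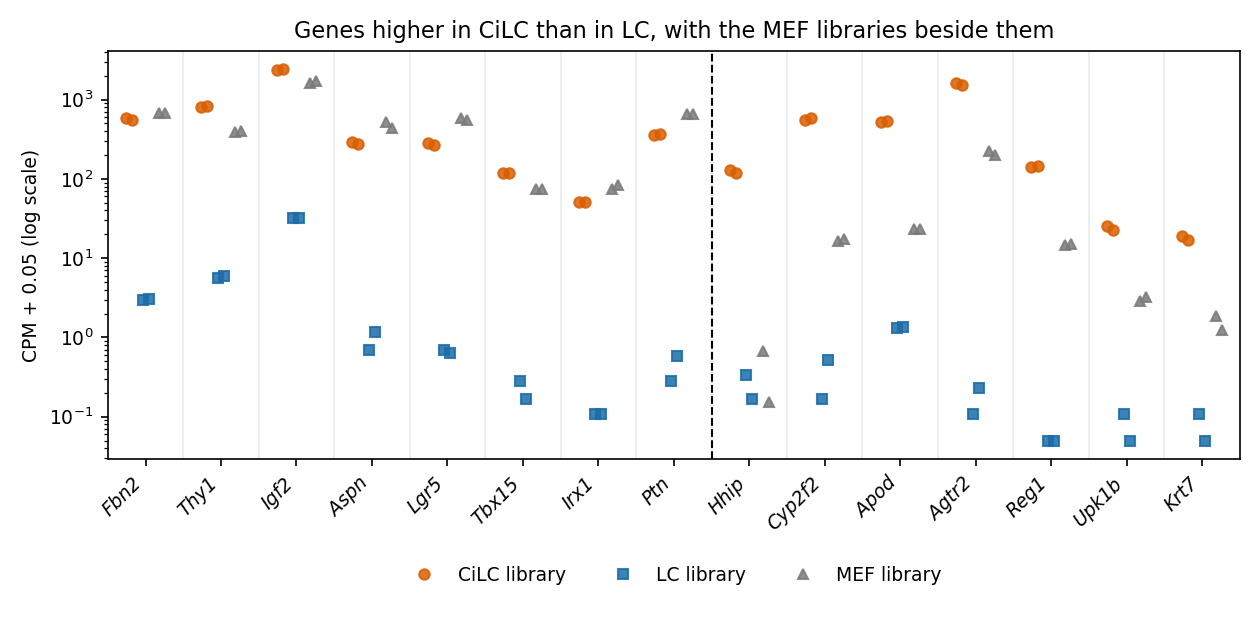
CPM of 15 genes higher in CiLC than in LC, in each library, on a log axis after adding 0.05. Most were named by rules that use the MEF level. Left of the dashed line are genes that were also high in MEF, and right of it genes far lower in MEF than in CiLC, such as Hhip with 131 and 119 CPM in CiLC and 0.629 and 0.104 in MEF.

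Collagen and matrix genes did not go one way. Of 40 collagen genes, 25 were higher and 12 lower in CiLC (median log2 fold change 0.63). Of 64 matrix glycoproteins and crosslinkers 28 were higher and 35 lower (median -0.16). Over all genes, 35.0% were higher and 35.6% lower. All 6 collagen IV genes, which encode the chains of basement membranes, were lower, and the 3 collagen V genes were higher. Col4a4 stood at 9.57 and 10.7 CPM in CiLC, 661 and 706 in LC and 1.21 and 1.93 in MEF (67.4-fold lower than in LC). Col28a1 stood at 49.4 and 47.0 CPM against 1.74 and 1.88 (26.5-fold higher). Col1a1, the main chain of collagen I, differed by 1.23-fold, with 7270 and 7390 CPM against 8750 and 9210, a call that ended when the coefficient of variation was set to 0.1 (adjusted p = 0.0755). Lumican (Lum), chosen after its values were seen, stood at 373 and 370 CPM against 6.44 and 5.0 in LC and 96.6 and 85.9 in MEF. The protease inhibitor Timp1 stood at 45.3 and 43.5 CPM against 1450 and 1450 (32.7-fold lower). Serpine2 was higher, at 306 and 306 against 10.8 and 10.9 CPM.

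Contractile genes were lower in CiLC than in LC. Of 23 members, 21 were lower than in LC and 1 higher, and the median log2 fold change was -1.60. Myh11, smooth muscle myosin, stood at 1.37 and 1.52 CPM in CiLC, 22.3 and 23.5 in LC and 30.5 and 29.0 in MEF (15.8-fold lower than in LC). Tagln, an actin-binding protein, stood at 33.7 and 32.4 CPM against 481 and 459 in LC and 388 and 388 in MEF (14.2-fold lower), and the light chain Myl9 at 16.3 and 16.9 against 164 and 155 in LC and 137 and 142 in MEF (9.58-fold lower). The intermediate filament gene Nes, which also marks Leydig progenitors, stood at 5.95 and 5.43 CPM against 72.9 and 72.6 in LC and 56.8 and 61.8 in MEF (12.8-fold lower). These 4 genes were named for a MEF level near or above that of LC, so their high MEF level was fixed by that choice. Over the whole list the summed level was 3830 CPM in both CiLC libraries, 9680 and 9820 in LC and 8340 and 8330 in MEF. TGF-beta response genes were lower for 16 of 25 and higher for 7 (median -0.46). Under the wide-spread setting, 13 contractile genes were lower.

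A further group was high in CiLC and low in LC, and far lower in MEF than in CiLC. Hhip, Agtr2, Cyp2f2, Apod and, below, Reg1 and Reg3g met a naming rule that asks for such a MEF level. Their low MEF level was thus part of the choice. Hhip, a membrane antagonist of hedgehog ligands, stood at 131 and 119 CPM in CiLC, 0.29 and 0.118 in LC and 0.629 and 0.104 in MEF (590-fold higher than in LC, edgeR adjusted p = 2.39e-22). Gli1, a target and effector of hedgehog signalling, stood at 35.0 and 37.2 CPM against 4.46 and 3.65 in LC and 0.629 and 0.364 in MEF (8.87-fold higher than in LC). Ptch1, the receptor of hedgehog ligands and also picked with its values known, was lower than in LC, with 75.7 and 72.7 CPM against 126 and 141. Agtr2, an angiotensin receptor of fetal mesenchyme, stood at 1630 and 1550 CPM in CiLC, 0.058 and 0.177 in LC and 226 and 199 in MEF. Its log2 fold change of 13.7 was 13.1 without LC replicate 1 and 14.6 without LC replicate 2, and that of Hhip (9.21) was 9.97 and 8.72. Cyp2f2, a cytochrome P450 known from airway cells, stood at 559 and 579 CPM against 0.116 and 0.471 in LC and 16.4 and 17.4 in MEF. Its log2 fold change of 10.9 was 10.2 without LC replicate 1 and 12.2 without LC replicate 2. Apod, a lipid-binding apolipoprotein, stood at 529 and 536 CPM against 1.28 and 1.3 in LC and 23.2 and 23.3 in MEF (412-fold higher).

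The regenerating-protein gene Reg1, also far lower in MEF than in CiLC, had 2800 and 2890 estimated reads in CiLC and 0 in both LC libraries, at least 1650-fold higher by the floor of 3 reads over the group, and stood at 14.8 and 15.1 CPM in MEF. Reg3g was at least 1080-fold higher by the same floor. Of 15 epithelial and mesothelial genes tested, 9 were higher and 6 lower in CiLC (median log2 fold change 4.23), and all 9 stayed called under the wide-spread setting. The summed level of that list ran the other way, with 195 to 212 CPM in CiLC, 521 to 528 in LC and 51.9 to 52.5 in MEF. Its 6 lower members included Aldh1a2, at 9.26 and 10.4 CPM against 379 and 385 in LC, and Wt1, at 20 and 16.9 against 122 and 124. The keratin Krt18 stood at 20.5 and 19 CPM in CiLC, 1.45 and 1.3 in LC and 0.891 and 0.885 in MEF, and the mesothelial surface gene Msln at 37.6 and 37.2 against 2.44 and 1.53 in LC and 3.77 and 4.79 in MEF. Krt18 and Msln were chosen after their values were seen. The Wnt inhibitor Wif1 had 458 and 383 reads in CiLC and 1 and 1 in LC, a ratio of 366 (95% counting interval 101 to 3020). Wnt pathway genes were higher for 23 of 32 and lower for 8 (median 1.04). Their summed level was 2410 to 2450 CPM in CiLC, 938 to 941 in LC and 2440 to 2450 in MEF, so as a list they were not low in MEF. Hedgehog pathway genes were higher for 11 of 18 and lower for 6 (median 1.00), the lower ones near the 35.6% of all genes. Their sum was 1720 to 1750 CPM in CiLC, 863 to 906 in LC and 901 to 934 in MEF.

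Prostaglandin genes split, though not cleanly by role. Of 20 tested, 10 were higher and 8 lower in CiLC, against 35.0% and 35.6% of all genes. Among them 7 of the 8 prostanoid receptor genes were higher, a reading by role made after the values were seen. Higher members outside the receptors included the synthase Ptgds, at 30.4 and 24.3 CPM against 6.44 and 5.71 in LC (4.50-fold). Ptgfr, the prostaglandin F receptor, stood at 82.0 and 79.5 CPM in CiLC, 1.39 and 1.47 in LC and 5.24 and 4.63 in MEF (56.2-fold higher than in LC). The cyclooxygenase Ptgs2 stood at 34.0 and 34.6 CPM against 83.2 and 87.9 (2.50-fold lower), and the prostacyclin synthase Ptgis at 24.4 and 26.5 against 86.9 and 83.2 (3.34-fold lower). The Ptgs2 call ended under the wide-spread setting (adjusted p = 0.13). Cyclic AMP signalling, which carries the luteinizing hormone signal, had 16 genes higher and 17 lower of 37, with a median of 0.10. Pde7b, a phosphodiesterase that degrades cyclic AMP, stood at 51.8 and 46.8 CPM in CiLC against 1.33 and 1.77 in LC (31.7-fold higher).

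Genes of the LC cultures that CiLC lacked reached beyond the steroid programme. Hdc, the histidine decarboxylase that makes histamine, had 1550 and 1550 reads in LC and 0 in both CiLC libraries, at least 1190-fold lower in CiLC by the floor of 3 reads over the group. Arg1, the arginase, stood at 0.56 and 0.71 CPM in CiLC, 496 and 457 in LC and 2.1 and 2.08 in MEF (743-fold lower than in LC). The aldo-keto reductase gene Akr1cl stood at 0.865 and 0.761 CPM against 424 and 397 in LC and 0.944 and 0.989 in MEF (501-fold lower). The zinc transporter Slc30a2 had 0 and 1 reads in CiLC and 664 and 603 in LC, a ratio of 1460 (95% counting interval 261 to 57600). The water channel Aqp2 had 337 and 340 reads in LC and 0 in both CiLC libraries, at least 260-fold lower. In these 5 genes the MEF level was 2.1 CPM or less. Akr1cl, Slc30a2 and Aqp2 met a naming rule that asks for a MEF level not far above that of CiLC. Their low MEF level was thus part of the choice.

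Proliferation genes were higher in CiLC. Of 44 cell cycle genes, 41 were higher than in LC and 3 were not called, and the median log2 fold change was 0.85 and fitted folds from 1.14 to 3.64. Ccnb2, a mitotic cyclin, stood at 14.6 and 15 CPM in CiLC, 4.17 and 3.94 in LC and 18.8 and 20.5 in MEF (3.64-fold higher than in LC). The mitotic motor gene Kif11 stood at 27.5 and 25.3 CPM against 8.41 and 8.83 in LC and 31.0 and 29.3 in MEF (3.06-fold higher). Cell cycle inhibitors were higher as well. Cdkn1c stood at 48.5 and 47.6 CPM against 1.74 and 1.71 in LC (27.8-fold higher), and Cdkn2a at 24.7 and 29.0 against 1.45 and 0.824 (23.4-fold higher). The list of inhibitors, p53 targets and senescence genes had 18 higher and 6 lower of 27 (median 0.58). These differences were small for most cell cycle genes, and under the wide-spread setting, 2 of them were called.

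**Figure D5:**
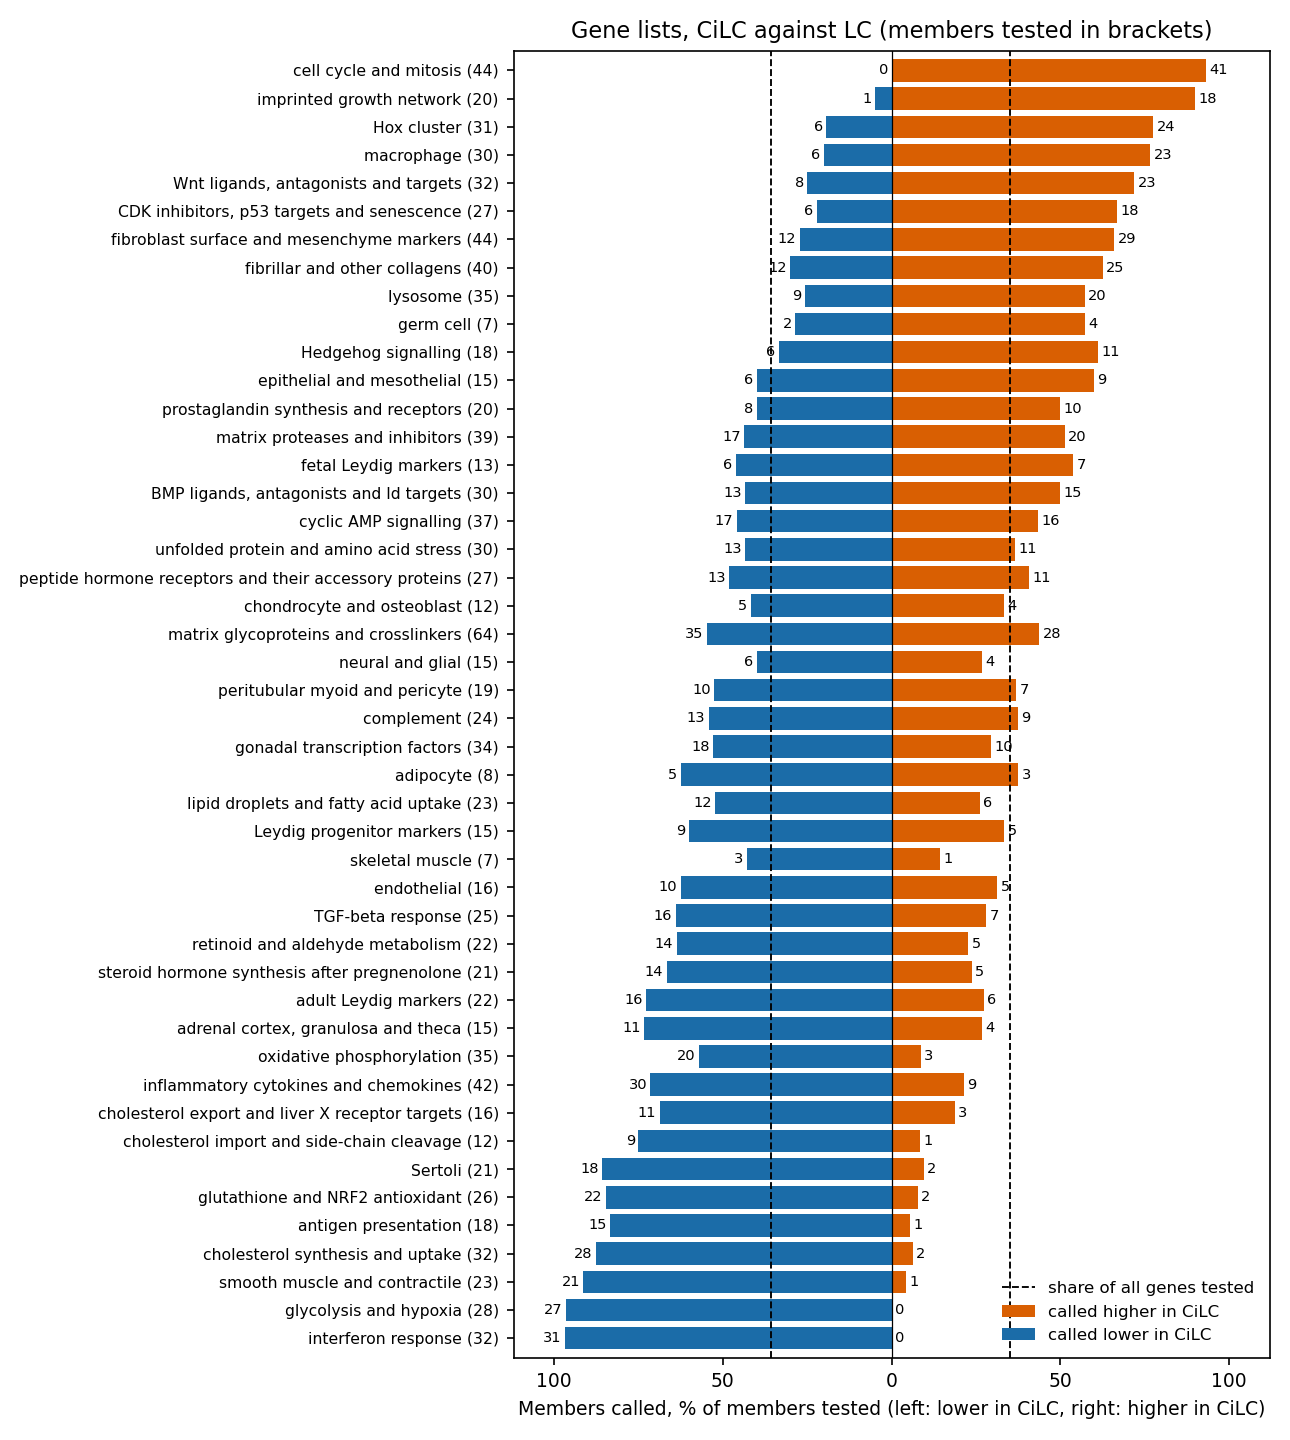
Members called higher (right) and lower (left) in CiLC than in LC, as a percentage of the members tested, for each list with at least 5 tested; numbers at the bar ends count the members, and dashed lines mark 35.0% and 35.6%, the shares of all genes called higher and lower. Cell cycle and imprinted genes stand at the top, and interferon, glycolysis and contractile genes at the bottom.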

How the data were processed

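Per the file headers, the authors deposited expected counts (estimated reads) for each NCBI gene number, with no scaling to library size. Reads were aligned with HISAT to mm9, per the submitters' processing notes. No source used here names the counter, annotation or strand setting, so overlapping and antisense genes cannot be told apart. Of the values in a library, 32.4% to 32.8% were not whole, as where reads are split between genes. Symbols matched 18179 of 18305 gene numbers in a RefSeq table of GRCm38.p6, and the other 126 held 0.164% to 0.259% of reads.

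Groups and replicate numbers came from the sample titles. Rounded counts entered edgeR 4.0.16 (R 4.3.3) with these steps: filterByExpr (minimum count 10, minimum total 15) left 14581 genes and removed 3724, TMM scaling, all 6 libraries fitted together by quasi-likelihood with 1 term, the group, two-sided tests, Benjamini-Hochberg adjustment over all genes tested, and a prior count of 0.125. CPM use scaled library sizes. A group at 0 was set to a floor of 3 reads over the group. Ratios with 1 to 3 reads in the lower group carry exact 95% binomial intervals. Intervals cover counting error only, and a floor leaves out the counting error of the higher group. The libraries of a group differed by more than sampling noise (chi-square per degree of freedom 1.8 in CiLC, 2.94 in LC and 2.77 in MEF), and none looked deposited again.

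Tested on data simulated from these libraries for CiLC against LC over 14581 genes, with 50 genes changed at each fold, the procedure recovered 58% at 1.2-fold, 80% at 1.5-fold, 94% at 2-fold and 98% at 4-fold, with 16 false calls among 14381 unchanged genes. All simulated libraries had the LC means and the spread estimated here, and changed genes were well read and went up and down equally. The simulation therefore does not cover a comparison with most genes changed, or spread between cultures.

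The comparison, its marker genes and the 48 gene lists (1232 genes, 1067 tested) were chosen with earlier results of these data known. Lists are described by counts and medians, without a test. Named genes are the markers and a fixed set, up to 12 genes in each direction with the largest fold among called genes with libraries that do not overlap and at least 10 CPM in the higher group, up to 10 in each of 4 classes by their MEF level relative to CiLC or LC, and up to 2 in each direction per list with at least 5 CPM. The rule gave 209 genes, and 21 were added after their values were seen. Outside both, Col3a1 was named for its read total, and Vdac1, Dhcr7, Soat1 and Srebf2 for a motif match. Alternatives were relative log expression scaling, limma 3.58.1 voom with quantile normalization, DESeq2 1.42.0, other filters, 4 libraries alone, a replicate block, assumed coefficients of variation of 0.1 and 0.4 and leaving out each library. Some genes are not reported here.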

Additional observations from a re-analysis of the deposited data

How the results depend on the processing

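The counts of genes called between CiLC and LC stayed within 1.5 times of the reported ones under 14 of 15 alternatives. With every gene's coefficient of variation set to 0.4, 937 genes were called higher and 1314 lower, all of them at least 2-fold. With 0.1 assumed, 3815 were higher and 3954 lower. With single libraries left out, 4594 to 5240 genes were higher and 4739 to 5267 lower, and at least 2-fold 1659 to 1727 were higher and 2023 to 2124 lower. Quantile normalization raised the share of higher calls from 49.6% to 55.4% and the 0.4 setting lowered it to 41.6%. With the replicate number as a block, 5100 genes were higher and 5190 lower, and all 226 tested named genes kept their direction and call. Same-numbered deviations correlated at -0.0891 between CiLC and LC, at 0.00721 between CiLC and MEF and at 0.0545 between MEF and LC. With 2 libraries a group and a spread that may be technical, these values cannot show whether the numbers pair the libraries. No named gene changed direction under any alternative. Calls lost numbered 41 of 226 with 0.4, 7 with 0.1, 4 with DESeq2, 1 without a filter, 5 without CiLC replicate 1, 1 without LC replicate 1 and 2 without LC replicate 2. With 0.4 assumed, 64 counts of list members in 41 of 48 lists moved by over 1.5 times, against 6 counts with single libraries left out. Genes with few reads in the lower group are limited by depth, and the fitted log2 fold change of 28 of 226 genes moved by over 1.5-fold when a library was left out.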
